A study of Homo sapiens with 6 samples.

Results

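The genes described here are the 39 nuclear genes that encode subunits of respiratory complexes II, III, IV and V, together with the gene of cytochrome c. They were chosen by Ensembl identifier from the subunit list of each complex, and all 39 were among the 57500 genes listed in every library. The set held 4 genes of complex II, 9 of complex III, 1 of cytochrome c, 10 of complex IV and 15 of complex V, spread over 20 chromosomes. RNA had been taken from mitochondria that were isolated with a kit from HepG2, an established human hepatocellular carcinoma line labelled wild type, so all groups share that line, that kit and 1 labelled batch. Controls received the DMSO vehicle alone (0 µM), and the other groups received 10 µM or 100 µM GenX, a short-chain fluorinated ether acid used as a processing aid for fluoropolymers. Exposure lasted 48 h, and each dose had 2 libraries, numbered replicates 1 and 2. The question set by the design is how the RNA recovered with mitochondria differs between doses. The labels do not say that the libraries of a dose came from separate cultures, so the p-values below measure the spread between these libraries and nothing beyond it, and that spread may be technical.

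Complexes II, III and IV carry electrons from succinate and ubiquinol to oxygen, and complexes III and IV pump protons across the inner mitochondrial membrane as they do so. Complex V, the ATP synthase, lets protons back and makes ATP. The subunits of complex II are all nuclear-encoded, whereas complexes III, IV and V combine nuclear-encoded subunits with a few that are encoded by mitochondrial DNA (mtDNA). The nuclear transcripts are translated in the cytosol, and some of them are known to be translated by ribosomes on the outer mitochondrial membrane, so a mitochondrial preparation can carry part of this cytosolic pool.

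The libraries differed strongly in depth. Counts on nuclear genes, meaning all genes not on the mtDNA, were 230210 and 54502 in the controls, 24505 and 11406 with 10 µM GenX and 2064527 and 1293961 with 100 µM. The mtDNA took 4.35% and 10.4% of all counts in the controls, 43.7% and 61.1% with 10 µM GenX and 3.59% and 3.32% with 100 µM. Levels below are therefore CPM computed over nuclear genes alone (nuclear CPM, counts of a gene relative to the library's nuclear-gene total) or shares of nuclear-gene counts, and a gene at 0 may lie anywhere below the level of 3 counts. That level was 13.0 and 55.0 nuclear CPM in the controls, 122 and 263 with 10 µM GenX and 1.45 and 2.32 with 100 µM. The 10 µM libraries also stood apart in nuclear-retained RNA: MALAT1 and NEAT1 together took 14.5% and 6.08% of nuclear counts in the controls, 0.0857% and 0.140% with 10 µM GenX and 3.47% and 3.18% with 100 µM. The 10 hepatocyte marker genes took 0.626% and 1.57%, then 0.0775% and 0.0351%, then 1.14% and 1.12%; all 10 had counts at 100 µM, while AFP had none in the other 4 libraries. The 8 markers of other cell types took 0.0213% to 0.0526% in all 6 libraries, with PTPRC and CD68 at 0 throughout. COL1A1 had counts in every library, at 217 and 110 nuclear CPM in the controls, 245 and 526 with 10 µM GenX and 32.45 and 32.46 with 100 µM. KRT7 had 4 and 1 counts in the controls, 0 and 0 with 10 µM GenX and 360 and 230 with 100 µM. COL3A1, PECAM1, VWF and ACTA2 had at most 10 counts in any library. How far depth, nuclear RNA and the other differences between preparations take part in the results below was not tested.

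The promoters of the 3 complex IV genes that held the most counts are shown because all 3 carry the core letters bound by ETS factors, a family that includes GABP (nuclear respiratory factor 2), a known regulator of respiratory genes. Each line gives 180 bases before and 20 after the RefSeq start site on the plus strand of GRCh38.p14, and capitals mark CCGGAAG or its reverse complement CTTCCGG. The windows are chr16:85799515-85799714 for COX4I1, chr12:120437933-120438132 for COX6A1 and chr2:97645882-97646081 for COX5B.
COX4I1: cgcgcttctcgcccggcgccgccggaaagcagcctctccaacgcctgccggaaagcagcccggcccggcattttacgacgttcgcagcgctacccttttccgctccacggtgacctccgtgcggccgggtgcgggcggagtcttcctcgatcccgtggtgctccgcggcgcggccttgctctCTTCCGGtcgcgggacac
COX6A1: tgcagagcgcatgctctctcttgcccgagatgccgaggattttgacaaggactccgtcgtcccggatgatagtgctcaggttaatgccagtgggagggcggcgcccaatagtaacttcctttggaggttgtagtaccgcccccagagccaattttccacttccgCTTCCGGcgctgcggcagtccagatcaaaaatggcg
COX5B: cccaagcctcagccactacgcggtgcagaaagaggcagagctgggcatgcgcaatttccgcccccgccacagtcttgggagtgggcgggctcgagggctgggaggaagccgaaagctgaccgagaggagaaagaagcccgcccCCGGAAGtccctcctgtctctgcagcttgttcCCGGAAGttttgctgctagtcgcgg

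RefSeq windows of 300 bases (250 before to 50 after the start site) were matched for 31 of the 39 genes. CCGGAAG, read on both strands, stood in 14 of these 31 windows (45.2%), against 14.2% of 15843 protein-coding promoters and 10.7% of all 27305. GCGCA followed by any base and then GCGC, the core associated with the factor NRF1, stood in 9 of 31 (29%), against 8.58% of coding and 6.28% of all promoters. AAGATGGCG, the YY1 core, stood in 3 of 31 (9.68%), against 2.74% and 1.85%, and TATAAA also stood in 3 (9.68%), against 9.63% and 12.0%. Each motif was counted once per window and overlaps between motifs were not removed. The median GC content of the 31 windows was 61.0%, against 62.7% for coding promoters. These are matches of letters and say nothing of binding.

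At 10 µM these genes held a smaller share of nuclear-gene counts than in both other groups, and at 100 µM both libraries lay inside the range of the controls. The 39 genes took 0.416% (exact 95% binomial interval 0.390 to 0.443) and 1.01% (0.930 to 1.10) of nuclear counts in control replicates 1 and 2. The shares were 0.106% (0.0693 to 0.155) and 0.281% (0.192 to 0.396) with 10 µM, and those with 100 µM were 0.866% (0.853 to 0.878) and 0.914% (0.897 to 0.930). Both 10 µM libraries therefore lay below both controls and both 100 µM libraries, while the controls stood on either side of the 100 µM pair. As means these were 0.715% ± 0.422, 0.193% ± 0.123 and 0.890% ± 0.0340 (SD, n = 2 each). With 2 libraries against 2, an exact permutation test cannot reach 0.05, so none was used for the shares. Over the pooled counts the share was 3.28-fold (2.53 to 4.35) higher in the controls than at 10 µM and 5.47-fold (4.23 to 7.21) higher at 100 µM than at 10 µM. It was 1.67-fold (1.58 to 1.76) higher at 100 µM than in the controls, although the control replicates differed by more than that. These intervals, like all intervals and 3-count levels given here, cover counting error only. In bulk RNA, fewer cells of a type and less RNA per cell cannot be told apart.

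**Figure D1:**
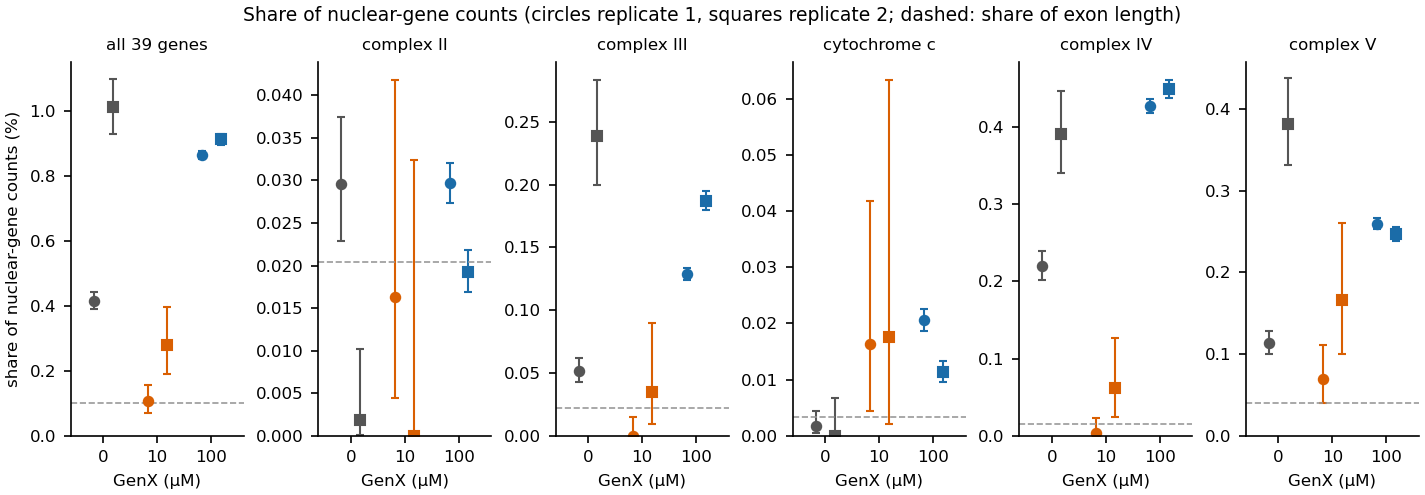
Share of nuclear-gene counts (%, vertical axis) against GenX dose (µM) for all 39 genes and for each complex, with circles for replicate 1, squares for replicate 2 and bars for exact 95% binomial intervals; the dashed line is the share of exon length. For all 39 genes both 10 µM libraries, at 0.106% and 0.281%, lie under the other 4, and the controls, at 0.416% and 1.01%, lie on either side of the 100 µM libraries.

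The share can be set against the length of the genes, since the 39 genes make up 0.101% of the exon length of nuclear genes. Their share of counts was 4.11 and 9.99 times that in the controls, 8.54 and 9.01 times at 100 µM, and 1.05 and 2.77 times at 10 µM. In replicate 1 at 10 µM these genes thus held about the share that their length alone would give. The same ratio for all protein-coding genes lay between 1.08 and 1.28 in the 6 libraries.

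The complexes were not equally represented at 10 µM. Complex IV genes supplied 52.8% and 38.6% of the counts on the 39 genes in the controls and 49.3% and 49.1% at 100 µM, but 3.85% and 21.9% at 10 µM. Complex V genes supplied 27.2% and 37.7%, then 30.0% and 27.0%, but 65.4% and 59.4% at 10 µM. Both 10 µM libraries thus lay below the other 4 for complex IV and above them for complex V, on 26 and 32 counts in all. In pooled shares of nuclear counts, the controls exceeded 10 µM by 11.3-fold (5.72 to 26.4) for complex IV, 7.85-fold (3.03 to 29) for complex III, 2.18-fold (0.812 to 8.21) for complex II and 1.64-fold (1.17 to 2.38) for complex V. The complex V ratio rests on 1 gene in 1 library, ATP5ME in control replicate 2, and without it was 1.02 (0.722 to 1.49); of the 69 control counts of complex II, 68 came from replicate 1. At 100 µM against control the pooled ratios were 1.73, 1.72 and 1.55 for complexes III, IV and V and 1.06 for complex II, but replicate 1 supplied most of the pooled control counts. Ratios of group means, which weight the libraries equally, were 1.09, 1.43, 1.02 and 1.56, and for complexes III and V control replicate 2 lay above both 100 µM libraries.

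Complex II oxidises succinate, and its flavoprotein SDHA and iron-sulfur protein SDHB are held to the membrane by SDHC and SDHD. Its genes took 0.0295% and 0.00184% of nuclear counts in the controls, 0.0163% and 0 with 10 µM GenX and 0.0296% and 0.0192% with 100 µM, so the groups overlapped. SDHD lay at 161 and 0 nuclear CPM in the controls, 0 and 0 with 10 µM GenX and 82.3 and 6.18 with 100 µM. Control replicate 1 had 37 SDHD counts and replicate 2 had none, and the 100 µM replicates differed by 13.3-fold (6.61 to 31.4), so the spread within groups covered any difference between them. SDHC lay at 99.9 and 0, then 0 and 0, then 62.0 and 85.8 nuclear CPM. SDHB was the only complex II gene with a count at 10 µM, 4 counts in replicate 1 and 0 in replicate 2, against 17.4 and 0 nuclear CPM in the controls and 17.0 and 33.2 at 100 µM.

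Complex III passes electrons from ubiquinol to cytochrome c through the Rieske protein UQCRFS1 and cytochrome c1 (CYC1), on a scaffold of the core proteins UQCRC1 and UQCRC2 and small accessory subunits. Its genes took 0.0517% and 0.239% of nuclear counts in the controls, 0 and 0.0351% with 10 µM GenX and 0.129% and 0.187% with 100 µM. UQCRC1 lay at 308 and 716 nuclear CPM in the controls, 0 and 0 with 10 µM GenX and 126 and 378 with 100 µM. Both controls were above the 3-count level of either 10 µM library, and over pooled counts UQCRC1 was at least 4.63-fold higher in the controls than at 10 µM. The accessory subunit gene UQCR11 lay at 47.8 and 1211 nuclear CPM in the controls, a 25.3-fold (13.3 to 53.2) difference between replicates, against 0 and 0 at 10 µM and 48.0 and 108 at 100 µM. UQCRQ, another accessory subunit gene, showed the opposite order, with 17.4 and 0 in the controls, 0 and 0 with 10 µM GenX and 311 and 514 with 100 µM. Pooled UQCRQ was 27.7-fold (10.8 to 102) higher at 100 µM than in the controls, where it had 4 counts in all. UQCRFS1 had no count in the controls or at 10 µM, and 151 and 3 counts at 100 µM.

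Cytochrome c (CYCS) is the small soluble carrier between complexes III and IV and is also known as a trigger of apoptosis when released from mitochondria. CYCS lay at 17.4 and 0 nuclear CPM in the controls, 163 and 175 with 10 µM GenX and 206 and 114 with 100 µM. Both treated groups were above both controls and overlapped each other, and the 10 µM values rest on 4 and 2 counts. The control level rests on 4 counts, all from replicate 1. Pseudogenes named after CYCS had 1 count in control replicate 1 and 3 in replicate 2, where CYCS itself had 0. They had 0 counts in either 10 µM library, and 3 and 0 in the 100 µM libraries. Counted as CYCS, they would lower the folds given next. Pooled CYCS was 12.1-fold (4.71 to 44.6) higher at 100 µM than in the controls and 11.9-fold (2.82 to 57.3) higher at 10 µM than in the controls. In the test across all genes neither difference passed: the log2 fold change was 3.04 ± 1.53 (SE) at 100 µM, with an edgeR adjusted p of 0.322, and 2.49 ± 1.62 at 10 µM, with an edgeR adjusted p of 0.291.

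Complex IV, cytochrome c oxidase, reduces oxygen at a catalytic core encoded by mtDNA, and its 10 nuclear genes here encode the subunits that surround and regulate that core. Together they took 0.220% and 0.391% of nuclear counts in the controls, 0.00408% and 0.0614% with 10 µM GenX and 0.427% and 0.449% with 100 µM, so the 3 groups did not overlap. COX4I1 (chromosome 16, 85798633 to 85807044, GRCh38) encodes a subunit that takes part in ATP-dependent regulation. It lay at 873 and 2404 nuclear CPM in the controls, 0 and 87.7 with 10 µM GenX and 885 and 1322 with 100 µM. Both 10 µM libraries were below both controls, with 1 count in all, and the 100 µM values lay within the control range. Pooled COX4I1 was 41.9-fold (7.46 to 1659) higher in the controls than at 10 µM. COX6A1 (chromosome 12, 120438090 to 120440742), the liver-type form of subunit VIa, lay at 239 and 954, then 0 and 87.7, then 862 and 744 nuclear CPM. Again both 10 µM libraries were below the other 4 and the 100 µM values lay within the control range, with a pooled ratio of control to 10 µM of 13.5 (2.37 to 538). At 100 µM against control the pooled ratios of these genes lay on either side of 1, at 0.903 (0.807 to 1.01) for COX4I1 and 2.17 (1.79 to 2.66) for COX6A1. COX5B (chromosome 2, 97646040 to 97648383), a zinc-binding subunit on the matrix side, lay at 122 and 128 nuclear CPM in the controls, 0 and 175 with 10 µM GenX and 690 and 729 with 100 µM. Both 100 µM libraries were above the other 4, by 5.74-fold (4.11 to 8.26) over the pooled controls, and the controls and 10 µM overlapped.

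Further complex IV genes show how uneven the small subunits were. COX5A, which binds COX4I1, lay at 196 and 73.4 nuclear CPM in the controls, 40.8 and 263 with 10 µM GenX and 160 and 154 with 100 µM, so the 3 groups overlapped. COX7A2, the liver form of subunit VIIa, lay at 39.1 and 110, then 0 and 0, then 563 and 645 nuclear CPM. Pooled COX7A2 was 11.3-fold (6.83 to 20.2) higher at 100 µM than in the controls and at least 7.12-fold higher at 100 µM than at 10 µM. COX7B had 123 counts in control replicate 1 and 0 in replicate 2, so its control level rests on 1 library. COX6C had 3 counts in each control and 0 at 10 µM, and was 13.5-fold (6.18 to 36.9) higher at 100 µM than in the controls over pooled counts.

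Complex V couples a catalytic head, built from ATP5F1A (subunit α) and ATP5F1B (subunit β), to a membrane ring of subunit c through central and peripheral stalks. Its genes took 0.113% and 0.382% of nuclear counts in the controls, 0.0694% and 0.167% with 10 µM GenX and 0.260% and 0.247% with 100 µM. In control replicate 2, 174 of its 208 complex V counts (83.7%) came from ATP5ME, the small membrane subunit e. ATP5ME lay at 13.0 and 3193 nuclear CPM in the controls, 0 and 0 with 10 µM GenX and 303 and 252 with 100 µM. The control replicates differed by 245-fold (82.5 to 1199), so the 100 µM values lie between them. Without ATP5ME, the 39-gene share of control replicate 2 was 0.694% in place of 1.01%. ATP5F1E, the ε subunit of the central stalk, lay at 387 and 147 in the controls, 0 and 0 with 10 µM GenX and 504 and 431 with 100 µM. Over pooled counts ATP5F1E was at least 4.08-fold higher in the controls and at least 5.69-fold higher at 100 µM than at 10 µM. Of the 97 pooled control counts 89 came from replicate 1. Control replicate 2, at 147 nuclear CPM, lay below the 3-count level of 10 µM replicate 2, 263, so the control fold does not hold for that library.

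The subunits of the catalytic head did not follow ATP5F1E. ATP5F1B (chromosome 12, 56638175 to 56646068) lay at 43.4 and 110 nuclear CPM in the controls, 327 and 526 with 10 µM GenX and 211 and 342 with 100 µM. ATP5F1A lay at 39.1 and 18.4, then 122 and 351, then 201 and 113 nuclear CPM. For both genes the 10 µM and 100 µM libraries were all above the controls and overlapped each other, on 8 and 6 counts of ATP5F1B and 3 and 4 of ATP5F1A at 10 µM. Pooled ATP5F1B was 6.94-fold (3.14 to 15.2) and pooled ATP5F1A 5.55-fold (1.79 to 16.2) higher at 10 µM than in the controls. The fitted log2 changes were 1.34 ± 1.5 (SE) for ATP5F1B and 1.43 ± 1.47 for ATP5F1A, with edgeR adjusted p of 0.536 and 0.498.

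The 3 genes ATP5MC1, ATP5MC2 and ATP5MC3 encode the same mature subunit c behind different import signals, and their values differed in order across doses. ATP5MC3 lay at 126 and 91.7 nuclear CPM in the controls, 204 and 351 with 10 µM GenX and 42.6 and 104 with 100 µM. On nuclear CPM it was the only one of the 39 genes with both 10 µM libraries above all 4 others, but the pooled ratio of 10 µM to control was 2.10 (0.885 to 4.47) and the fitted log2 change -0.03 ± 1.44 (SE, edgeR adjusted p of 1.0). ATP5MC2 lay at 8.69 and 36.7, then 0 and 87.7, then 120 and 180 nuclear CPM, and both 100 µM libraries were above the other 4. ATP5MC1 lay at 13.0 and 36.7, then 0 and 0, then 69.3 and 123, again with 100 µM above the controls. Pooled over libraries, ATP5MC3 was 1.80-fold (1.22 to 2.59) higher in the controls than at 100 µM, whereas ATP5MC2 was 10.2-fold (3.96 to 37.6) and ATP5MC1 5.12-fold (2.17 to 15.9) higher at 100 µM. In the fit across all genes, the 100 µM change was -1.19 ± 1.39 (SE) for ATP5MC3, 2.50 ± 1.46 for ATP5MC2 and 1.61 ± 1.35 for ATP5MC1 on the log2 scale, none of which passed (edgeR adjusted p of 0.668, 0.383 and 0.533).

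**Figure D2:**
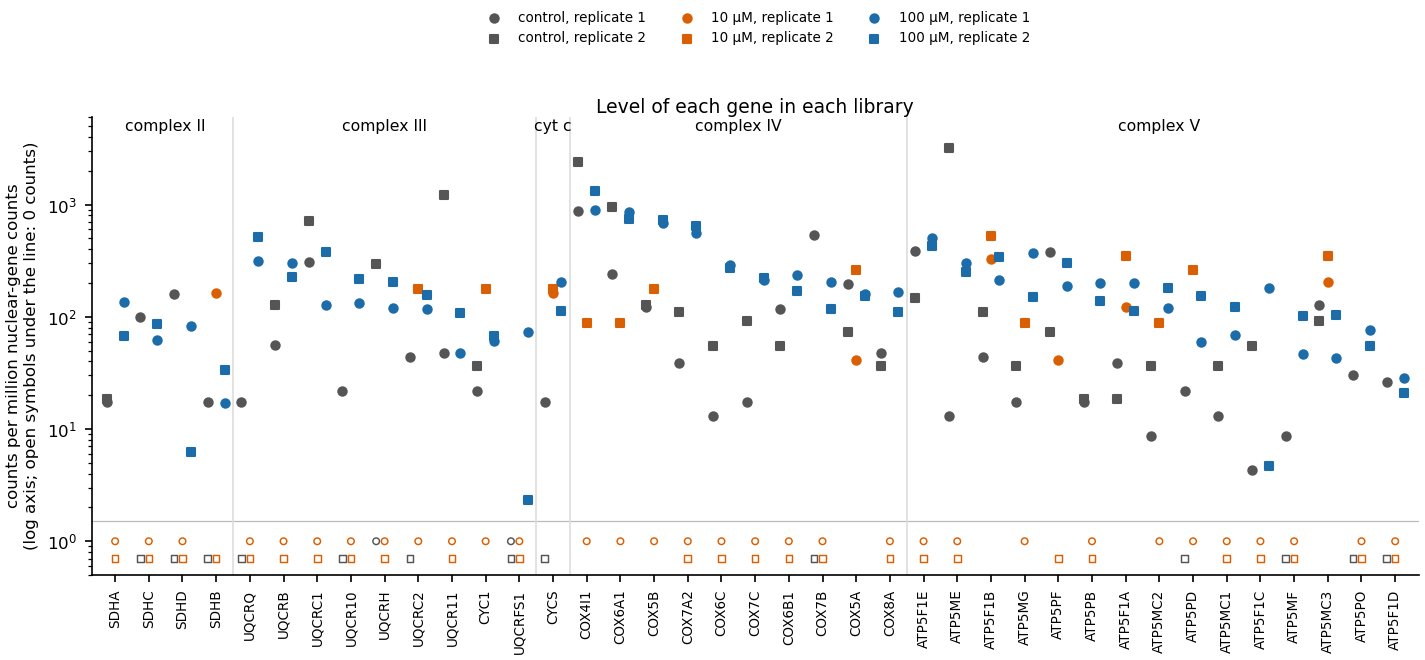
Nuclear CPM (log axis) of each of the 39 genes, grouped by complex, with 1 point per library: grey for control, orange for 10 µM and blue for 100 µM, circles for replicate 1 and squares for replicate 2. Open symbols under the grey line are libraries with 0 counts; 24 of the 39 genes have no count in either 10 µM library, and all 39 have counts in both 100 µM libraries.

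Levels of different genes can be compared only per length of exon, here as nuclear CPM per kilobase of annotated exon, a length that includes every annotated exon and so lowers genes with long rare transcripts. At 100 µM, where every gene had counts, COX6A1 was highest at 641 and 554, followed by COX5B at 479 and 506. The next were COX7A2 at 293 and 336, ATP5ME at 322 and 268, UQCRQ at 211 and 349 and COX8A at 325 and 218, and these 4 neighbours overlapped in their replicates. COX4I1 followed at 185 and 276 per kilobase. The lowest mean was that of SDHC, at 4.38 and 6.06, but in replicate 2 UQCRFS1 at 0.667, ATP5F1C at 1.99 and SDHD at 2.46 lay below it. The highest means thus belonged to small subunits of complexes III, IV and V.

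The number of these genes with a count differed between libraries, as did depth. In the controls 37 and 26 of the 39 genes had a count, at 10 µM 7 and 13, and at 100 µM all 39 in both libraries. Brought to the depth of the shallowest library, 11406 nuclear counts, the number expected by counting was 16.7 and 16.6 in the controls, 5.57 and 13.0 with 10 µM GenX and 29.7 and 28.9 with 100 µM. At that depth the values of the groups did not overlap, with the 100 µM libraries close together and the 10 µM libraries lowest. These are point values without intervals, and the 10 µM libraries differed from each other by more than replicate 2 differed from the controls. How far depth accounts for the differences was not tested. At the same depth control replicate 2 had 116 expected counts on these genes and replicate 1 had 47.5, yet they touched nearly the same number of genes. Of the 39 genes, 24 had no count in either 10 µM library, where 3 counts over both libraries correspond to 83.5 nuclear CPM. The 5 genes with a count in both 10 µM libraries were ATP5F1A, ATP5F1B, ATP5MC3, CYCS and COX5A.

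**Figure D3:**
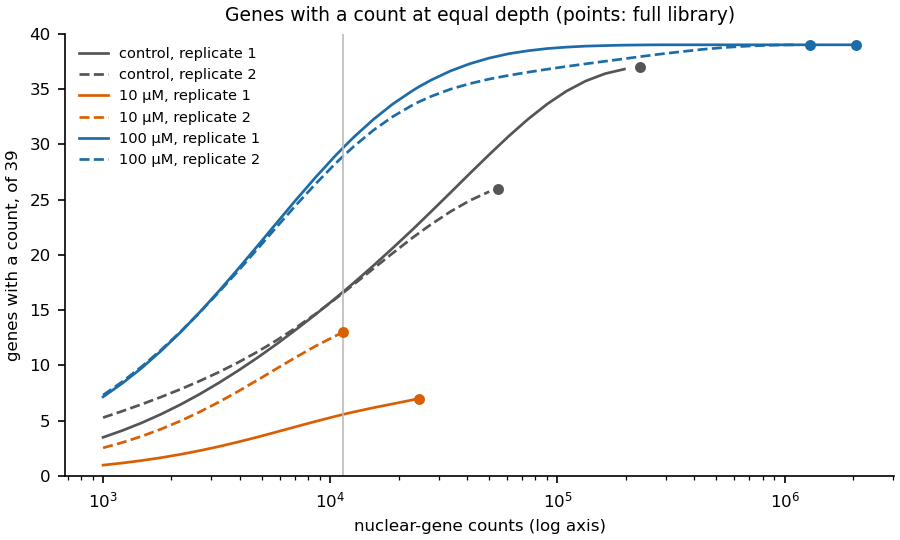
Number of the 39 genes with a count (vertical axis) expected when each library is reduced to the depth on the horizontal axis (nuclear-gene counts, log axis), with solid lines for replicate 1, dashed lines for replicate 2 and points for the full libraries. At the vertical line, 11406 counts, the 100 µM libraries give 29.7 and 28.9 genes, the controls 16.7 and 16.6, and the 10 µM libraries 5.57 and 13.0.

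Replicates agreed poorly in the controls and better at 100 µM. Over the 39 genes, log2(nuclear CPM + 1) of the replicates correlated at 0.246 in the controls, 0.468 with 10 µM GenX and 0.637 with 100 µM, as a description across genes, which are not independent replicates. At 100 µM the median absolute log2 difference between replicates was 0.68 for the 39 genes, against 0.97 for the 9311 nuclear genes with counts in both libraries. Even so, 33 of the 39 genes differed between the 100 µM replicates beyond counting error (95% interval excluding 1), and 10 differed more than 2-fold. ATP5F1C, the γ subunit of the central stalk, was 39-fold (17.7 to 107) higher in replicate 1 and UQCRFS1 31.6-fold (10.6 to 155). In the controls 19 of the 25 genes with counts in both libraries differed more than 2-fold, and 13 further genes had counts in 1 library only.

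**Figure D4:**
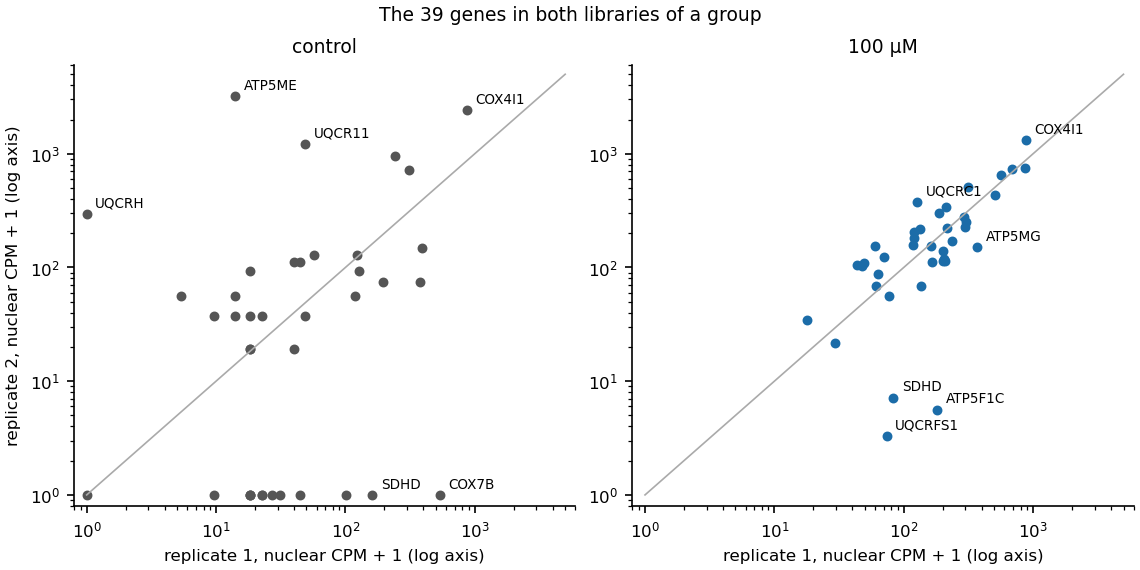
Nuclear CPM + 1 of each of the 39 genes in replicate 1 (horizontal, log axis) and replicate 2 (vertical, log axis) of the controls and of the 100 µM group, with the line of equality. Control points scatter widely, with ATP5ME at 13.0 and 3193 nuclear CPM, while most 100 µM points follow the line apart from ATP5F1C, UQCRFS1 and SDHD.

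Against control, 17 of the 39 genes were lower in both 10 µM libraries than in both controls, a pattern shown by 10.5% of the 19597 nuclear genes with a count. They included UQCRC1, UQCR11, COX4I1, COX6A1, COX7A2, COX6B1, ATP5ME and ATP5F1E. This count, like the others without overlap below, ranks 0 counts as lowest, although a gene at 0 may lie anywhere below its 3-count level. For several of the 17 the pooled control level was itself below the pooled 3-count level at 10 µM, so no decrease is shown for them. COX7A2, SDHA and UQCRB were at 0.631, 0.210 and 0.841 times that level in the controls, whereas UQCRC1 was at 4.63 times. A further 4 genes, CYCS, ATP5F1A, ATP5F1B and ATP5MC3, were higher in both 10 µM libraries on nuclear CPM, against 3.41% of nuclear genes, although the fitted change of ATP5MC3 was -0.03. Such patterns are more frequent among genes with more counts: of the 3145 nuclear genes deep enough for the test below, 32% were lower and 11.1% higher without overlap, and 15 and 4 of the 31 genes of this set that were tested. In the edgeR quasi-likelihood test, 0 of those 31 genes passed an adjusted p of 0.05, against 19 of 3180 genes overall (0.597%, with 7 higher, or 0.22%, and 12 lower, or 0.377%). At an unadjusted p under 0.05 there were 9 of 31, and 895 of all 3180. The smallest edgeR adjusted p was that of COX4I1, 0.103, with a log2 fold change of -6.81 ± 1.61 (SE). The fitted change was below 0 for 27 of the 31 genes, against 2217 of 3180. With genes at 0 in a group placed at their 3-count bound (18 of the 31), the median log2 change was -0.73. It was the same over 3086 of all genes tested, 1332 of them at the bound. With so many genes at the bound, this median depends on the 3-count level and does not estimate a change. Without control replicate 1 or 2 the fitted log2 change of COX4I1 was -7.34 or -6.95. More genes then passed, in this set and over all genes. In those fits the control arm is a lone library assumed to vary like the other groups. DESeq2's Wald test called 6 of the same 31 genes, against 554 of all 3180. When no filter on low counts was used it called 0 of the 39, against 15 of 19632.

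At 100 µM against control, 24 of the 39 genes were higher in both libraries than in both controls, against 26.1% of nuclear genes with a count, and 0 were lower, against 4.29%. They included UQCRQ, CYCS, COX5B, COX7A2, COX6C, ATP5F1A, ATP5F1B and ATP5F1E. Among the tested nuclear genes the shares were 48.3% and 9.57%, and 19 and 0 of the 31 tested genes of this set. By edgeR 0 of the 31 passed, as did 0 of all 3180 genes (0%), with 1 of 31 and 573 of 3180 at an unadjusted p under 0.05. DESeq2's Wald test on the same genes also called 0 of the 31. The gene with the smallest edgeR adjusted p was UQCRQ, 0.259, at a log2 change of 4.45 ± 1.88 (SE). The fitted change was above 0 for 20 genes and below 0 for 11, with a median of 1.07, against a median of 0.35 over all genes. Scaling moves both medians: with DESeq2 size factors they were 0.52 and -0.13, and with library sizes alone 1.73 and 1.02. Some genes with many control counts had fitted changes below 0, such as UQCR11 at -3.24 ± 1.78 (SE, edgeR adjusted p of 0.356) and ATP5ME at -2.74 ± 1.81 (0.437). These directions rest on control replicate 2, since without it the fitted values were 0.10 for UQCR11 and 3.79 for ATP5ME.

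**Figure D5:**
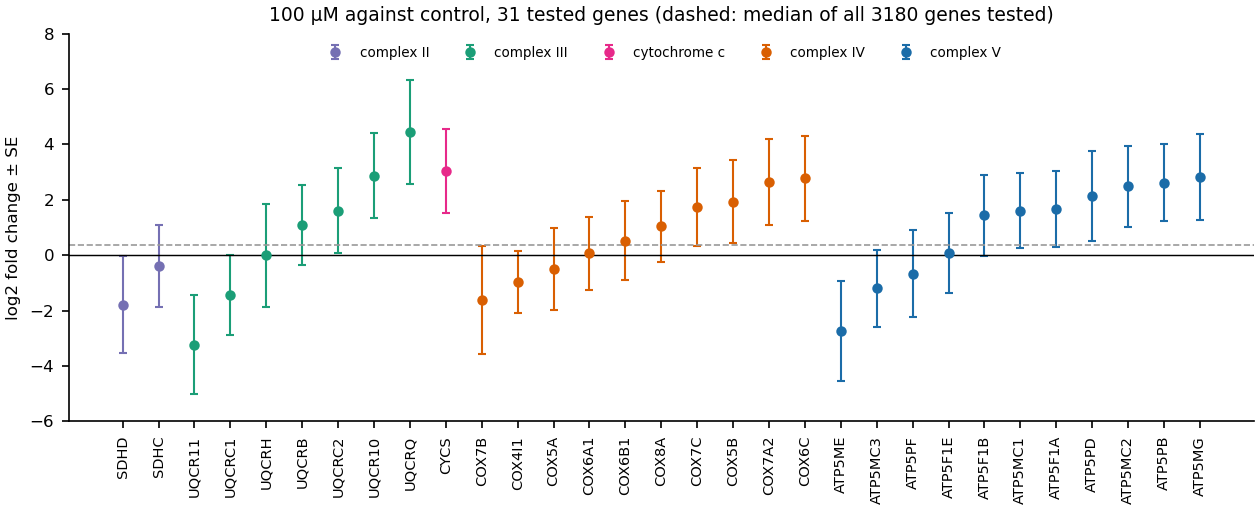
Log2 fold change at 100 µM against control, with its standard error, for the 31 tested genes by complex; the dashed line is the median of all 3180 genes tested, 0.35. Of the 31 genes 20 lie above 0 and 11 below, and none passed the test.

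At 100 µM against 10 µM, 30 of the 39 genes were higher without overlap, against 34.6% of nuclear genes with a count, and 1 gene, ATP5MC3, was lower, against 2.75%. Here too 0 counts rank as lowest. Some of the 30, such as SDHD and UQCRFS1, had pooled 100 µM levels of 0.634 and 0.549 times the 10 µM level of 3 counts. No increase is shown for those, whereas COX7A2 was at 7.12 times that level. Among the tested nuclear genes the shares were 63.8% and 7.63%, with 24 and 1 of the 31. This comparison shares its 10 µM libraries with the first and its 100 µM libraries with the second, so the 3 are not independent. Again 0 of the 31 tested genes passed in edgeR, against 91 of 3180 genes (2.86%, with 24 higher, or 0.755%, and 67 lower, or 2.11%), with 16 of 31 and 1150 of 3180 at an unadjusted p under 0.05. COX4I1 again had the smallest edgeR adjusted p, 0.0766, at a log2 change of 5.83 ± 1.57 (SE). COX6A1 was next among genes with counts in both groups, at 5.37 ± 1.82 and an edgeR adjusted p of 0.130. With genes at their bound, the median was 1.80 for the 31 genes, 18 of them at the bound. It was 1.21 over 3179 of all genes tested, 1320 of them at the bound. More genes passed, in this set and over all genes, without control replicate 1, without control replicate 2 or without 10 µM replicate 2. The control replicates enter this comparison only through the shared estimate of the spread. Each of these fits leaves a lone library in 1 group. DESeq2's Wald test on the same genes called 3, COX7A2, COX4I1 and ATP5F1E, against 383 of all 3180. Without a filter it called 0 of the 39, against 925 of 19632.

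The nuclear-encoded subunits can also be set against the mtDNA-encoded subunits of the same complex in the same library. For complex III there were 187 and 232 nuclear counts per 1000 MT-CYB counts in the controls, 0 and 2.20 with 10 µM GenX and 642 and 949 with 100 µM. For complex IV there were 112 and 102 per 1000 counts of MT-CO1, MT-CO2 and MT-CO3 in the controls, 0.226 and 1.68 with 10 µM GenX and 189 and 215 with 100 µM. For complex V there were 811 and 652 per 1000 counts of MT-ATP6 and MT-ATP8 in the controls, 16.6 and 19.3 with 10 µM GenX and 2207 and 2114 with 100 µM. In all 3 complexes the groups did not overlap, with 10 µM lowest and 100 µM highest, and the control replicates were closer to each other on this scale than in their shares of nuclear counts. All nuclear genes together, set against all mtDNA genes, had the same order without overlap. The mtDNA took 4.35% and 10.4% of all counts in the controls, 43.7% and 61.1% with 10 µM GenX and 3.59% and 3.32% with 100 µM. The order is therefore not particular to these complexes. The mtDNA partners moved too: at 10 µM against control MT-CO1, MT-CO3 and MT-CYB rose by 2.55, 2.93 and 3.02 on the log2 scale (edgeR adjusted p of 0.0284, 0.0414 and 0.0411), and the other 3 did not pass. These 3 calls were lost with library sizes alone, without a filter on low counts, with DESeq2's Wald test without a filter, and without 10 µM replicate 1 or 2, and MT-CO3 was lost without 100 µM replicate 1 or 2. Without control replicate 1 or 2 there were 5 calls. All 6 fell at 100 µM against 10 µM in edgeR; 0 of these calls stood without a filter and 2 with DESeq2's unfiltered test, while 3 stood without 10 µM replicate 1 or 2 and 1, MT-CYB, without 100 µM replicate 1 or 2. The ratio therefore combines both pools, and it also follows how much cytosolic RNA a preparation held, which was not tested.

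Related genes outside the 39 had few counts in the controls and at 10 µM. The other subunits and isoforms of complexes IV and V, 11 genes, took 0.00565% and 0.00550% of nuclear counts in the controls, 0.00816% and 0 with 10 µM GenX and 0.0835% and 0.0779% with 100 µM. NDUFA4, a complex IV subunit once assigned to complex I, had 1 and 0 counts in the controls, 0 and 0 with 10 µM GenX and 415 and 379 with 100 µM. ATP5MK, a small complex V subunit, had 3 and 0, then 0 and 0, then 374 and 273. Of the 4 tested genes of this list 0 passed in any comparison, although all 4 had an unadjusted p under 0.05 at 100 µM against control, where NDUFA4 changed by 5.49 ± 1.81 (SE, log2) with an edgeR adjusted p of 0.204. The isoform genes COX4I2, COX7A1, COX7B2 and COX8C, which are known from muscle, lung or testis, had no count in any library, and COX6A2, the heart and muscle isoform, had 2 counts, both in 10 µM replicate 1. COX6B2, a testis isoform, went the other way, with 4 and 2 counts in the controls, 0 and 0 with 10 µM GenX and 43 and 18 with 100 µM. These isoforms were singled out after their values were seen.

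The 38 assembly factors of complexes II to V, which build the complexes but are not part of them, took 0.0621% and 0.158% in the controls, 0.0408% and 0.0351% with 10 µM GenX and 0.133% and 0.175% with 100 µM. SURF1, which acts in complex IV assembly, supplied 76 of the 86 counts on this list in control replicate 2 and had 9 in replicate 1, so here too 1 gene carried that library. PET100, also of complex IV assembly, had 53 and 0 counts in the controls, 0 and 0 with 10 µM GenX and 369 and 323 with 100 µM. Of the 6 assembly factors tested 0 passed in any comparison, with 0, 1 and 2 at an unadjusted p under 0.05. The 37 nuclear genes of complex I took 0.159% and 1.42%, then 0.0816% and 0.184%, then 0.354% and 0.393%. There 10 µM overlapped the controls, unlike for the 39 genes as a set, although complexes II and V of that set overlapped too. The complex I overlap was lost when the gene with the most counts was left out of each library. Control shares were then 0.116% and 0.802%, against 0.0367% and 0.105% with 10 µM GenX. The gene left out of both 10 µM libraries was NDUFS7, with 11 of 20 counts in replicate 1 and 9 of 21 in replicate 2.

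Some counts may belong to other genes. Exons of 20 of the 39 genes overlap another listed gene, 8 of them on the same strand, and the strand setting of the counting was not given in the sources used here. For ATP5ME 61.6% of the exon length overlaps MYL5 on the opposite strand, and MYL5 had 0 counts in both controls. With the strand setting unknown, that 0 cannot show whether any of the 174 ATP5ME counts came from MYL5. COX8A shares 34.5% of its exon length with a gene on the same strand that had 0 counts in all 6 libraries. Pseudogenes named after 31 of the 39 genes, 173 in all and 42 of them after CYCS, held 26 and 7 counts in the controls, 9 and 0 with 10 µM GenX and 135 and 69 with 100 µM, so levels of these genes carry that uncertainty.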

How the data were processed

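The authors deposited 1 table of raw gene counts for each library, with featureCounts column names. FastQC, STAR, featureCounts and DESeq2 are named with GRCh38, without versions, in the submitters' processing notes. Per the labels' protocols, libraries were stranded and depleted of ribosomal RNA. Which annotation release, strand setting and multi-mapping option the counting used is not given in the sources used here. Gene symbols were matched by identifier, for 56410 of 57500 genes, and exon overlaps and gene types came from GENCODE v29, in which all 39 genes had the same ends.

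The 39 genes and the other lists (complex I, other subunits, assembly factors, mtDNA partners, nuclear-retained RNA, hepatocyte and other-cell markers) were chosen with earlier results of these data known. Any of the 39 could be named. Values per library were given for the 3 genes of complexes III, IV and V and the 2 of complex II with the highest mean nuclear CPM, CYCS, the subunit c genes and every gene with counts in both 10 µM libraries; the other genes given per library were picked after their values were seen.

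The test was edgeR 4.0.16 in R 4.3.3 on the deposited counts: filterByExpr (3180 genes), TMM scaling, a robust quasi-likelihood fit to the 6 libraries together, two-sided, Benjamini-Hochberg over all genes tested, threshold 0.05. The filter removed 8 of the 39 genes, so counts over the tested genes do not cover SDHA, SDHB, UQCRFS1, CYC1, ATP5F1C, ATP5F1D, ATP5MF and ATP5PO. Shares carry exact 95% Clopper-Pearson intervals, and pooled ratios exact conditional binomial intervals. Folds against a group at 0 used 3 counts over its pooled nuclear total and take the other group's counts as measured. The SE of an edgeR fold change was computed as its absolute log2 value divided by the square root of the test's F statistic, and is approximate. Expected genes at equal depth came from the hypergeometric formula. The scripts were tested on simulated data. DESeq2 1.42.0 was an alternative; Python 3.11.15, pandas 2.3.3, scipy 1.17.1 and matplotlib 3.10.9 were also used.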

Additional observations from a re-analysis of the deposited data

How the results depend on the processing

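At 10 µM against control 19 genes and 0 of the 31 were called. All genes called were 7 with library sizes alone, 1 with nuclear genes only and 7 without a filter. DESeq2's Wald test called 554 genes, 6 of them among the 31. With only the 4 libraries compared, the filter kept 458 genes and 3 of the 39. Of these, 206 genes were called, including 2 of the 3 (UQCRC1 and COX4I1). DESeq2's test without a filter called 15 genes and 0 of the 39. Leaving out each library gave 4 to 861 genes and 0 to 6 of the 31. At 100 µM against control (0 genes) the counts were 3 with DESeq2 size factors, 244 with DESeq2's Wald test and 11 with that test without a filter, and 0 to 204 leaving out each library, with 0 of the 31 in every setting run. At 100 µM against 10 µM (91 genes) they were 0 with nuclear genes only, 3 without a filter, 258 with only the 4 libraries, 383 with DESeq2's Wald test and 925 with that test without a filter, and 16 to 1272 leaving out each library; of the 31, DESeq2's Wald test called 3 (COX7A2, COX4I1 and ATP5F1E), only the 4 libraries 2, and leaving out each library 0 to 14. DESeq2's test without a filter was added after seeing the data. The causes were not tested.

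No pairing by replicate number was seen: deviations of same-numbered libraries correlated at 0.000331, 0.00315 and -0.0222. With 2 libraries per group and few counts in several of them, such values cannot exclude a pairing. With a replicate block, calls were 75, 22 and 136 genes in the 3 comparisons, against 19, 0 and 91 without it. Of the 31, the block gave 1 (COX4I1), 0 and 0.

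Directions reversed for COX6A1 at 100 µM against control, from 0.07 to -0.51 with DESeq2 size factors, -0.41 with its Wald test and -0.25 with that test without a filter, and for CYCS at 100 against 10 µM, from 0.55 to -0.21, -0.46 and -0.058. Leaving out each library, UQCR11 at 100 µM against control ran from -3.61 to 0.10 and ATP5ME from -3.16 to 3.79, each positive without control replicate 2. The 39-gene share ran from 0.416% to 1.01% in the controls and from 0.106% to 0.281% at 10 µM on leaving out 1 library, and as a share of all gene counts the 10 µM mean was 0.0844% in place of 0.193%. The mean share at 100 µM, 0.890%, was 0.971% without the 10 top nuclear genes of each library and 0.779% without the top gene of the set, the latter added after seeing the data, as were the ratios of group means and complex V without ATP5ME. At 10 µM depth limits what can be said, since a gene without a count may lie as high as 122 or 263 nuclear CPM.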
